A study of Arabidopsis thaliana with 24 samples.

Results

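The comparison is of *Ch1* seedlings after 4 h of high light (HL 4 h) with *Ch1* seedlings at the start of that treatment (HL 0 h), with 3 libraries in each group. These 6 are among the 24 libraries of the series, which holds 4 time points (0, 1, 2 and 4 h) at each of 2 light levels. HL 4 h seedlings had spent 4 h at 1000 µE in distilled water, while HL 0 h seedlings had spent 0 h there. In the parallel low light groups (LL 4 h and LL 0 h, 3 libraries each) the light was 30 µE. All groups share the *Ch1* genotype, an *Arabidopsis thaliana* mutant in the Col-0 ecotype that makes no chlorophyll b, the age of 2 weeks, and a wait of at least 1 h in water beforehand. No wild type is among the libraries, so the comparison is of the mutant with itself. Whole seedlings were taken, so fewer cells of a type and less RNA per cell cannot be told apart. Light, hours in the treatment plate and time of day all differ between HL 4 h and HL 0 h and cannot be told apart within HL. The LL change over the same hours is therefore set beside the HL change for several of the gene lists. A change given without its LL value may also be found in LL.

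Chlorophyll b is carried by the light-harvesting antenna proteins, which feed absorbed light to the 2 photosystems. When light exceeds what carbon fixation can use, chloroplasts form reactive oxygen species such as singlet oxygen, superoxide and hydrogen peroxide, and plants answer with a smaller antenna, with photoprotective proteins and pigments, with chaperones and with antioxidants. Photorespiration, which recovers the carbon lost when Rubisco takes up oxygen instead of carbon dioxide, draws off further energy. Many of the genes involved also follow the circadian clock, and cold, touch and jasmonate signalling share several of the fast transcription factors.

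RNA was counted at the 3' ends of transcripts (MARS-seq). The HL 4 h libraries held 1684981 to 1842274 counts and the HL 0 h libraries 1617051 to 2011380 counts, over the 11166 genes of the HL table. Levels are CPM, the counts scaled to library size with TMM factors. A gene is called higher or lower when its Benjamini-Hochberg adjusted p by edgeR's quasi-likelihood test is under 0.05 and its change at least 2-fold. At HL 4 h 839 genes were called higher than at HL 0 h (7.51% of those tested) and 912 lower (8.17%), or 15.7% either way. The change was at least 4-fold for 240 genes higher and 313 lower, and at least 8-fold for 69 and 131. The median log2 fold change of all genes was 0.04, and the 3 libraries of HL 4 h did not overlap those of HL 0 h for 38.2% of genes. Replicate 2 stood somewhat apart in both groups: the chi-square per degree of freedom of its counts against the other replicates was 6.23 and 7.84 in HL 4 h and 6.50 and 6.87 in HL 0 h, against 4.88 and 4.34 between the other pairs. Without both of these libraries 809 genes were higher and 872 lower. The source labels do not say whether replicates were separate cultures, so each p-value speaks only of the spread among these libraries.

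Of the genes called lower at 4 h, 605 of 912 were already called lower at 2 h (7.20% of all genes were) and 391 at 1 h (5.05% of all genes). Of those called higher, 390 of 839 were called higher at 2 h (4.71% of all genes) and 258 at 1 h (3.96%). These comparisons share the HL 0 h libraries. The genes were read through 49 lists of 686 genes, of which 556 were in the HL table, and 17 lists are plotted.

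**Figure D1:**
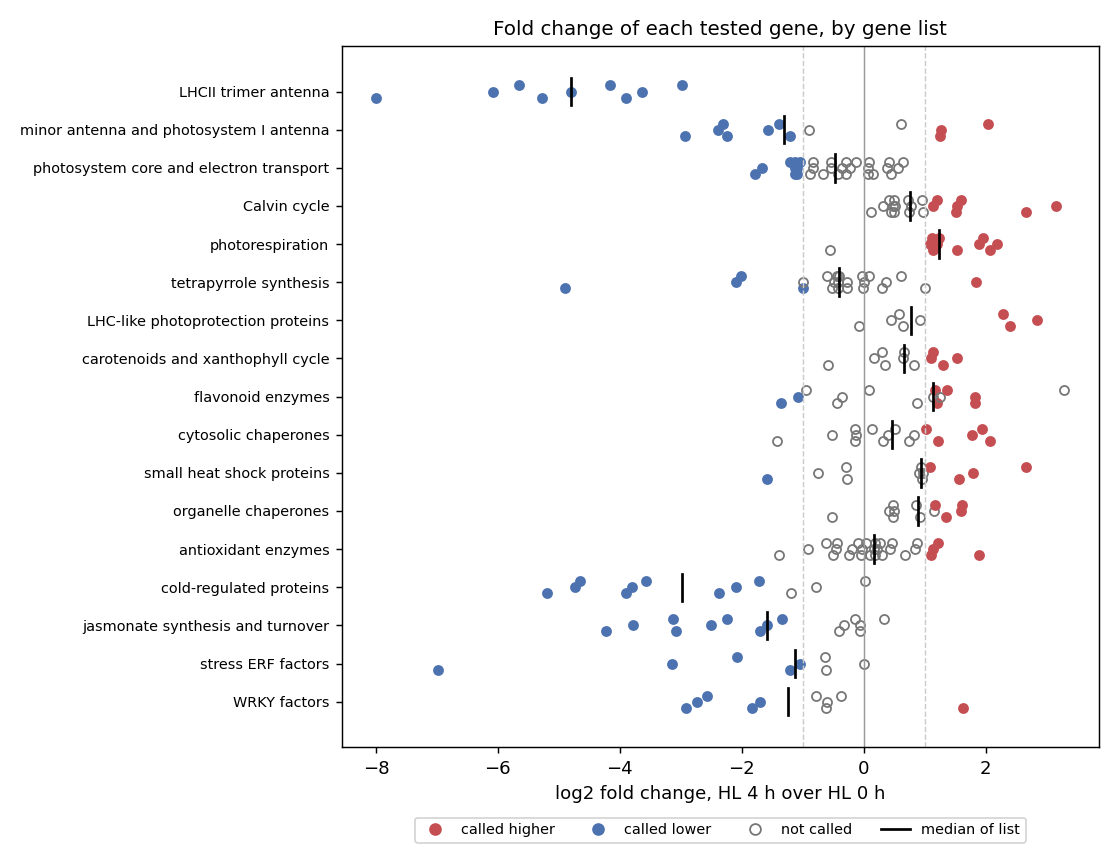
Log2 fold change of each tested gene (HL 4 h over HL 0 h, horizontal axis) in 17 gene lists, with filled red points called higher, filled blue points lower, open points neither, black bars for list medians and dashed lines at 2-fold. All 9 LHCII genes lie at -2.97 or lower, while 10 of 11 photorespiration genes lie between 1.09 and 2.19.

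The trimeric light-harvesting complex of photosystem II (LHCII) lost transcripts of every subunit gene: all 9 of 9 tested genes fell, with a median log2 fold change of -4.80 against 0.04 for all genes. LHCB1.1, a major LHCII gene, had 53.8, 61.4 and 33.1 CPM at HL 4 h, against 12489, 13592 and 11751 CPM at HL 0 h. The groups lie far apart (log2 fold change -7.99, SE 0.234, adjusted p = 1.12e-14). LHCB1.2 had 171, 269 and 132 CPM at HL 4 h, against 12610.4, 13369 and 12594 CPM at HL 0 h (log2 fold change -6.08, SE 0.21, adjusted p = 1.1e-13). LHCB1.3, LHCB1.4 and LHCB1.5 fell less, by 2.97, 4.16 and 3.90 on the log2 scale. LHCB1.5 still had 2126, 2472 and 1699.7 CPM at HL 4 h, against 27079, 35387 and 31261 CPM at HL 0 h. The 5 LHCB1 proteins are close to identical, but the last 200 bases of their annotated genes are 48.1 to 54.5% identical in pairs, and 3' reads come from there. The second LHCII gene type, LHCB2, fell in all 3 copies. LHCB2.2 had 44.2, 54.3 and 40.3 CPM at HL 4 h, against 2432, 2631 and 1968 CPM at HL 0 h, and LHCB2.1 and LHCB2.3 changed by -4.80 and -5.28. LHCB3, the third LHCII type, had 10.1, 12.1 and 16.6 CPM at HL 4 h, against 135, 189 and 161 CPM at HL 0 h (log2 fold change -3.64, SE 0.38, adjusted p = 4.24e-07), and it was the 1 LHCII gene already called lower at HL 0 h than at LL 0 h (-2.86). No library of HL 4 h overlapped one of HL 0 h for any of the 9 genes. Mean LHCB1.1 levels were 12611, 1271, 231 and 49.5 CPM at 0, 1, 2 and 4 h, and those of LHCB1.5 were 31242, 20246, 10577 and 2099.5 CPM at 0, 1, 2 and 4 h.

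The antenna of photosystem I and the monomeric antenna of photosystem II fell too, but by less and with 3 genes in the other direction. Of 12 genes, 7 fell and 3 rose, with a median of -1.30. LHCA1, which sits beside the photosystem I core, had 2795, 3058 and 2507 CPM at HL 4 h, against 14672, 16006 and 13104 CPM at HL 0 h (log2 fold change -2.39, SE 0.118, adjusted p = 1.67e-11), and LHCA4, its partner, changed by -2.93. LHCA2 (-1.21) and LHCA3 (-1.58) fell less. The monomeric LHCB4.2 (-2.31), LHCB5 (-1.39) and LHCB6 (-2.24) fell as well. The third LHCB4 copy went the other way. LHCB4.3, also named LHCB8, had 561, 512 and 333 CPM at HL 4 h, against 117, 96.8 and 125 CPM at HL 0 h (log2 fold change 2.05, SE 0.23, adjusted p = 1.09e-06). Its libraries did not overlap, and its mean level was 113, 91.6, 136 and 468 CPM at 0, 1, 2 and 4 h. LHCA6, which helps to link photosystem I to the NDH complex of cyclic electron flow, rose to 119 ± 17.7 CPM at HL 4 h, against 48.8 ± 17.5 CPM at HL 0 h (SD, n = 3 each, log2 fold change 1.27, SE 0.212, adjusted p = 0.000125). LHCB7 was called higher on few counts (1.26), a call that ends with DESeq2 and without HL 0 h replicate 2 (1.09), HL 0 h replicate 3 (1.13) or HL 4 h replicate 3 (0.99). LHCB4.1 (-0.89) and LHCA5 (0.61) passed the adjusted p but not 2-fold. Together the 21 antenna genes took 2.37 to 2.85% of all counts at HL 4 h and 13.9 to 15.2% at HL 0 h. The scaling factors of the HL 4 h libraries (1.02 to 1.07) and of the HL 0 h libraries (0.862 to 0.944) move with that share. In LL over the same hours 16 of the 21 genes were also called lower (10.9% of all genes were), and the 3 exceptions were not called higher there.

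**Figure D2:**
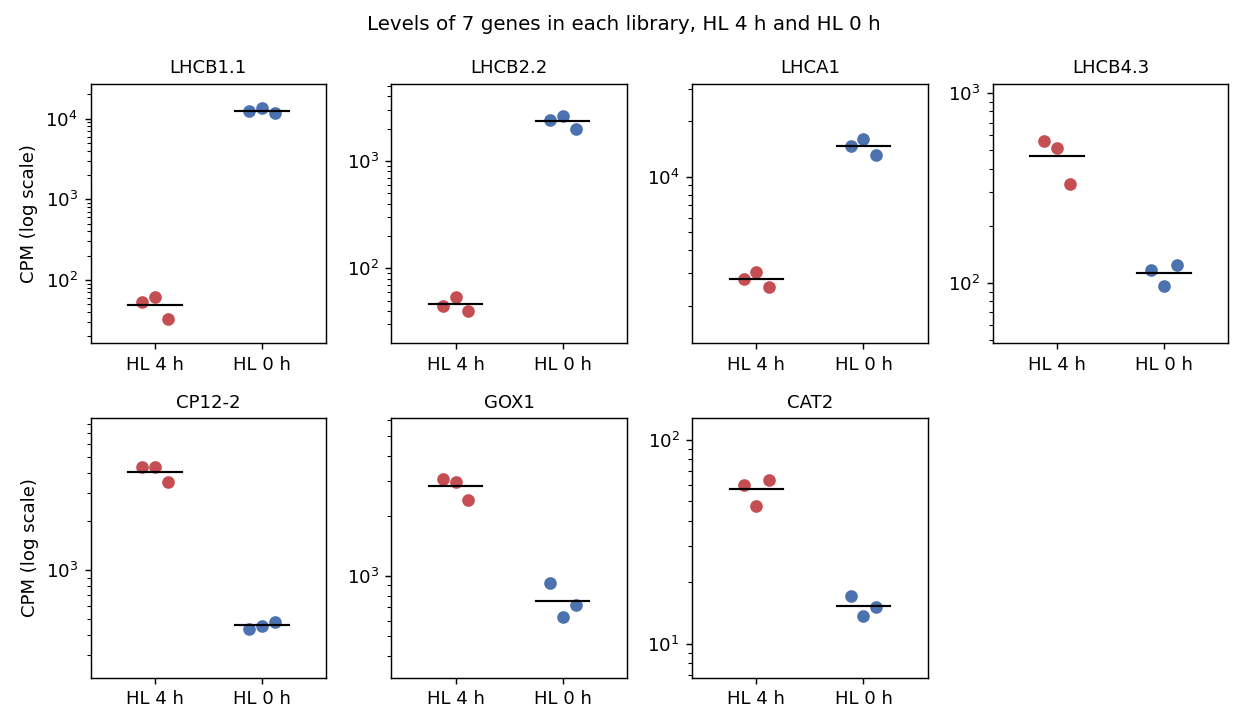
CPM of 7 genes in each library (points, logarithmic vertical axis) at HL 4 h (red) and HL 0 h (blue), with the group mean as a bar. LHCB1.1, LHCB2.2 and LHCA1 lie lower at HL 4 h, while LHCB4.3, CP12-2, GOX1 and CAT2 lie higher, and no group overlaps the other.

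The photosystem cores and the electron transport chain held fewer called genes than their antenna. Of 30 nuclear genes, 9 fell, 0 rose and the median was -0.47. The largest falls were those of PSAO (-1.78) and PSAF (-1.66) of photosystem I, and 7 of the 9 encode photosystem I subunits. PSAL, which docks LHCII to photosystem I, had 5754, 5869 and 5006 CPM at HL 4 h, against 12706, 13315 and 10318 CPM at HL 0 h (log2 fold change -1.13, SE 0.11, adjusted p = 1.74e-07). PSBQ2, of the oxygen-evolving complex, and PETE1, the minor plastocyanin, changed by -1.13 and -1.09, PSBQ2 not being called without HL 0 h replicate 1 (-0.92) nor PETE1 without HL 4 h replicate 3 (-0.97). PSBR, a photosystem II subunit, had 26805, 30303 and 26137 CPM at HL 4 h, against 26084, 28862 and 24613 CPM at HL 0 h, and these groups overlap (log2 fold change 0.07, SE 0.108, adjusted p = 0.718). PETE2, the major plastocyanin, changed by 0.08 and PETC, the Rieske protein, by 0.39. In LL 15 of the 30 genes were called lower (10.9% of all genes were), with a median of -1.06, against -0.47 in HL. The HL change was called higher than the LL change for 3 of the 30.

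Genes of carbon fixation rose in part. Of 20 Calvin cycle genes 7 rose and 0 fell, with a median of 0.77. CP12-2, a linker that switches off GAPDH and phosphoribulokinase in the dark, had 4316, 4331 and 3497 CPM at HL 4 h, against 433, 454 and 478 CPM at HL 0 h (log2 fold change 3.15, SE 0.116, adjusted p = 1.99e-13). Its level was 455, 1061, 1929.8 and 4048 CPM at 0, 1, 2 and 4 h. RBCS2B, a small subunit of Rubisco, had 10594, 8641 and 8828 CPM at HL 4 h, against 3472, 3057 and 3130.2 CPM at HL 0 h (log2 fold change 1.54, SE 0.113, adjusted p = 3.8e-09), and FBA1, an aldolase, had 2573, 2670.3 and 2270.4 CPM at HL 4 h, against 918, 954 and 767 CPM at HL 0 h (log2 fold change 1.51, SE 0.127, adjusted p = 2.35e-08). None of these libraries overlapped between the groups. RBCS1B (2.66), GAPA1 (1.601), RPI3 (1.14) and SBPASE (1.202) made up the rest of the 7. RBCS3B, another small subunit gene, did not pass. It had 18325 ± 2769 CPM at HL 4 h and 16839.7 ± 726 CPM at HL 0 h (SD, n = 3 each), a log2 fold change of 0.12. RBCS1A showed how far HL 0 h replicate 2 can stand apart. It had 9077, 5879.9 and 10441 CPM at HL 4 h, against 8939, 1764 and 7098 CPM at HL 0 h, and the groups overlap (log2 fold change 0.51, adjusted p = 0.325). GAPA1 was low in the same library, with 637, 388 and 654 CPM at HL 4 h, against 243, 84.6 and 223 CPM at HL 0 h, and these groups do not overlap. Without HL 0 h replicate 2 the GAPA1 change was 1.29, still called, and 8 genes of the list rose.

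Photorespiration rose almost as a whole: 10 of 11 tested genes were higher and 0 lower, with a median of 1.24. The steps run from peroxisome to mitochondrion and back. GOX1, a glycolate oxidase that makes hydrogen peroxide in the peroxisome, had 3071, 2954 and 2399 CPM at HL 4 h, against 925, 622 and 717 CPM at HL 0 h (log2 fold change 1.90, SE 0.145, adjusted p = 6.25e-09). GOX2 had 344, 222 and 317 CPM at HL 4 h, against 78.1, 75.3 and 73.2 CPM at HL 0 h (log2 fold change 1.96, SE 0.194, adjusted p = 2.05e-07). Of the peroxisomal aminotransferases, AGT1 changed by 1.13 and GGT1 by 1.24. In the mitochondrion, the glycine decarboxylase genes GLDP1 (1.53), GLDP2 (1.204), GLDT (1.09) and GDCH (2.19) rose, and so did the serine hydroxymethyltransferase SHM1 (1.14). The GDCH call ends without HL 4 h replicate 1 (1.61) and the SHM1 call without HL 0 h replicate 1 (0.91) or without HL 4 h replicate 1 (0.91). GLDP1 had 5145, 3035 and 4215 CPM at HL 4 h, against 1333, 1687 and 1266 CPM at HL 0 h, with no overlap. HPR1, the hydroxypyruvate reductase, had 347, 145 and 408 CPM at HL 4 h, against 101, 26.5 and 82.2 CPM at HL 0 h (log2 fold change 2.08, SE 0.375, adjusted p = 0.000277), and its replicate 2 was the lowest in both groups. The exception was GLYK, the last enzyme of the cycle in the chloroplast, with a log2 fold change of -0.54 (adjusted p = 0.0332) and overlapping groups. Beyond the list, CAT2, the leaf peroxisomal catalase that removes the hydrogen peroxide of glycolate oxidation, had 60.2, 47.2 and 63.5 CPM at HL 4 h, against 17.1, 13.6 and 15.1 CPM at HL 0 h (log2 fold change 1.89, SE 0.209, adjusted p = 8.82e-07). In LL none of the 11 photorespiration genes was called by edgeR's test (17.2% of all genes were, either way) and 4 had an unadjusted p under 0.05, with a median change of 0.18.

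Chlorophyll and heme synthesis moved less than the antenna. Of 23 tested tetrapyrrole genes 1 rose and 4 fell, with a median of -0.41. PORB, which reduces protochlorophyllide in the light, had 163, 171 and 159 CPM at HL 4 h, against 796, 610.4 and 683 CPM at HL 0 h (log2 fold change -2.09, SE 0.145, adjusted p = 1.7e-09). PORA fell on few counts, 1 at HL 4 h and 37 at HL 0 h (ratio 40.8, 95% interval 6.88 to 1650), while PORC did not pass 2-fold (0.61). The 2 ferrochelatases, which make heme, went opposite ways. FC1 had 18.7, 22.5 and 19.3 CPM at HL 4 h, against 71.0, 99.7 and 74.4 CPM at HL 0 h (log2 fold change -2.01, SE 0.19, adjusted p = 1.14e-07), and FC2, the chloroplast form of green tissue, had 159.9, 132 and 119.9 CPM at HL 4 h, against 39.6, 43.8 and 31.9 CPM at HL 0 h (log2 fold change 1.84, SE 0.166, adjusted p = 5.96e-08). CRD1, of the cyclase step, fell by 1.001, at the 2-fold limit, and loses its call without HL 0 h replicate 2 (-0.80), HL 4 h replicate 1 (-0.95) or HL 4 h replicate 3 (-0.84). CHLH, a subunit of magnesium chelatase, changed by -0.999 and fell just short of it. In chlorophyll breakdown 2 of 6 genes rose and 0 fell: NYC1, a chlorophyll b reductase (2.09), and CLH1, a chlorophyllase (1.82). That count is 4 without HL 0 h replicate 2.

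Photoprotective proteins and pigments rose in part. Of 8 LHC-like genes 3 rose: SEP2, ELIP1 and ELIP2, members of the family of early light-induced proteins. SEP2 had 413, 342 and 374 CPM at HL 4 h, against 43.5, 46.6 and 66.0 CPM at HL 0 h (log2 fold change 2.85, SE 0.162, adjusted p = 1.04e-10). ELIP1 had 27.2, 34.6 and 33.7 CPM at HL 4 h, against 7.70, 5.02 and 5.03 CPM at HL 0 h (log2 fold change 2.396, SE 0.305, adjusted p = 5.19e-06), and ELIP2 had 22.4, 12.6 and 15.5 CPM at HL 4 h, against 3.85, 2.87 and 3.35 CPM at HL 0 h (log2 fold change 2.29, SE 0.424, adjusted p = 0.00036). None of the 3 had overlapping groups. ELIP2 was late, at 3.36, 3.33, 4.52 and 16.8 CPM at 0, 1, 2 and 4 h. PSBS, which triggers heat dissipation in the antenna, had 2076, 2078 and 1741 CPM at HL 4 h, against 2178, 2085 and 1933 CPM at HL 0 h, with overlapping groups (-0.07). In carotenoid synthesis 4 of 11 genes rose and 0 fell, with a median of 0.66. They are LUT5 and BCH1, which hydroxylate carotene rings, LYC, the lycopene cyclase, and CCD1, a carotenoid cleavage enzyme. LUT5 had 28.2, 23.0 and 22.1 CPM at HL 4 h, against 9.90, 8.61 and 6.71 CPM at HL 0 h (log2 fold change 1.54, SE 0.252, adjusted p = 0.000102) and BCH1 changed by 1.11. LYC (1.30) overlapped between the groups and loses its call without HL 0 h replicate 2 (0.96), HL 4 h replicate 1 (1.27) or HL 4 h replicate 3 (0.84). CCD1 (1.13) loses its call without HL 4 h replicate 1 (0.88), where 2 genes of the list rose. ABA1, the zeaxanthin epoxidase, changed by -0.58.

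Of 15 tested flavonoid and phenylpropanoid enzymes 5 rose, 2 fell and 8 were not called. CHS, the first enzyme of the pathway proper, had 402, 488 and 325 CPM at HL 4 h, against 149, 176 and 204 CPM at HL 0 h (log2 fold change 1.2, SE 0.158, adjusted p = 7.93e-06). CHI (1.18), F3H (1.82), FLS1 (1.37) and the flavonoid glucosyltransferase UGT78D2 (1.83) rose as well, FLS1 not without HL 4 h replicate 2 (0.98). UGT78D2 had 66.6, 74.6 and 77.9 CPM at HL 4 h, against 20.9, 19.4 and 21.2 CPM at HL 0 h, with no overlap. The 2 that fell were PAL2 (-1.35) and PAL4 (-1.08), phenylalanine ammonia lyases, and PAL4 loses its call without HL 0 h replicate 1 (-0.996), which leaves 1. Of 7 regulators HY5, a light-signalling bZIP factor, and MYB12, an activator of flavonol synthesis, rose. HY5 had 216, 229.8 and 237 CPM at HL 4 h, against 42.4, 53.8 and 59.8 CPM at HL 0 h (log2 fold change 2.13, SE 0.151, adjusted p = 2.38e-09), and its level was 52.0, 187, 215 and 228 CPM at 0, 1, 2 and 4 h. MYB12 changed by 1.47.

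Several cytosolic chaperones were higher at HL 4 h than at HL 0 h, with means below those at 1 h. MBF1C, a co-activator of the heat response, had 135, 143 and 151 CPM at HL 4 h, against 25.9, 20.1 and 18.4 CPM at HL 0 h (log2 fold change 2.73, SE 0.178, adjusted p = 6.97e-10), and its mean level was 21.5, 376, 261 and 143 CPM at 0, 1, 2 and 4 h. HSP70-4 had 393, 329 and 376 CPM at HL 4 h, against 153, 86.8 and 78.3 CPM at HL 0 h (log2 fold change 1.78, SE 0.192, adjusted p = 6.43e-07), and its course was 106, 1122, 867 and 366 CPM at 0, 1, 2 and 4 h. HOP3, a co-chaperone of HSP90, had 38.4, 30.7 and 40.9 CPM at HL 4 h, against 9.35, 12.2 and 5.03 CPM at HL 0 h (log2 fold change 2.07, SE 0.254, adjusted p = 3.13e-06). Among 16 cytosolic chaperones HSP70-4, HOP3, HSP90.1, HSP101 and ROF1 rose and 0 fell, with a median of 0.46. The other 3 changed by 1.94, 1.02 and 1.22. HSP90.1 is not called with DESeq2 or without HL 0 h replicate 3 (1.74), HL 4 h replicate 2 (1.82) or HL 4 h replicate 3 (1.81), nor HSP101 without HL 0 h replicate 2 (0.96), HL 0 h replicate 3 (0.93) or HL 4 h replicate 1 (0.90). Without HL 0 h replicate 3, or without replicate 2 of both groups, 3 genes of the list rose. HSC70-1, the constitutive form, had 4072 ± 152 CPM at HL 4 h and 3086 ± 127 CPM at HL 0 h (SD, n = 3 each), a log2 fold change of 0.40.

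Of 12 small heat shock proteins 4 rose and 1 fell. HSP17.8 had 64.0, 56.5 and 54.1 CPM at HL 4 h, against 17.6, 16.5 and 16.2 CPM at HL 0 h (log2 fold change 1.79, SE 0.275, adjusted p = 4.89e-05) and HSP17.4 had 36.2, 36.2 and 50.3 CPM at HL 4 h, against 13.2, 18.6 and 10.1 CPM at HL 0 h (log2 fold change 1.57, SE 0.236, adjusted p = 3.72e-05). HSP17.6C (1.09) rested on few counts and loses its call without HL 0 h replicate 3 (0.81) or without HL 4 h replicate 3 (0.79). HSP23.5 had 16 counts at HL 4 h and 2 at HL 0 h (ratio 7.26, 95% interval 1.71 to 65.1), and DESeq2 and 4 of the 6 single libraries left out end its call. HSP18.2 fell (-1.59), a call that ends without HL 0 h replicate 3 (-1.40) or without HL 4 h replicate 3 (-1.24). Among the factors, HSFB2B rose (1.599) and HSFA3 fell (-1.60) of 9 with MBF1C, and HSFA2 changed by 1.47 (adjusted p = 0.0771). In the chloroplast and mitochondrion 4 of 12 chaperones rose and 0 fell: HSP90.5, CPHSC70-2, MTHSC70-2 and CPN60A. HSP90.5, the chloroplast HSP90, had 225, 218 and 208 CPM at HL 4 h, against 85.8, 66.7 and 60.4 CPM at HL 0 h (log2 fold change 1.61, SE 0.154, adjusted p = 1.34e-07). CPHSC70-2, a chloroplast HSP70, had 133, 86.1 and 114 CPM at HL 4 h, against 49.5, 12.9 and 45.3 CPM at HL 0 h, with HL 0 h replicate 2 the lowest. None of 13 genes of protein folding in the endoplasmic reticulum was called by edgeR's test, with a median of -0.12, and 4 had an unadjusted p under 0.05. DESeq2 called 0 as well, while 1 was called lower without HL 4 h replicate 2 or without HL 4 h replicate 3, and 2 without replicate 2 of both groups. The binding protein BIP1 had 706, 1098, 1288 and 726 CPM at 0, 1, 2 and 4 h.

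**Figure D3:**
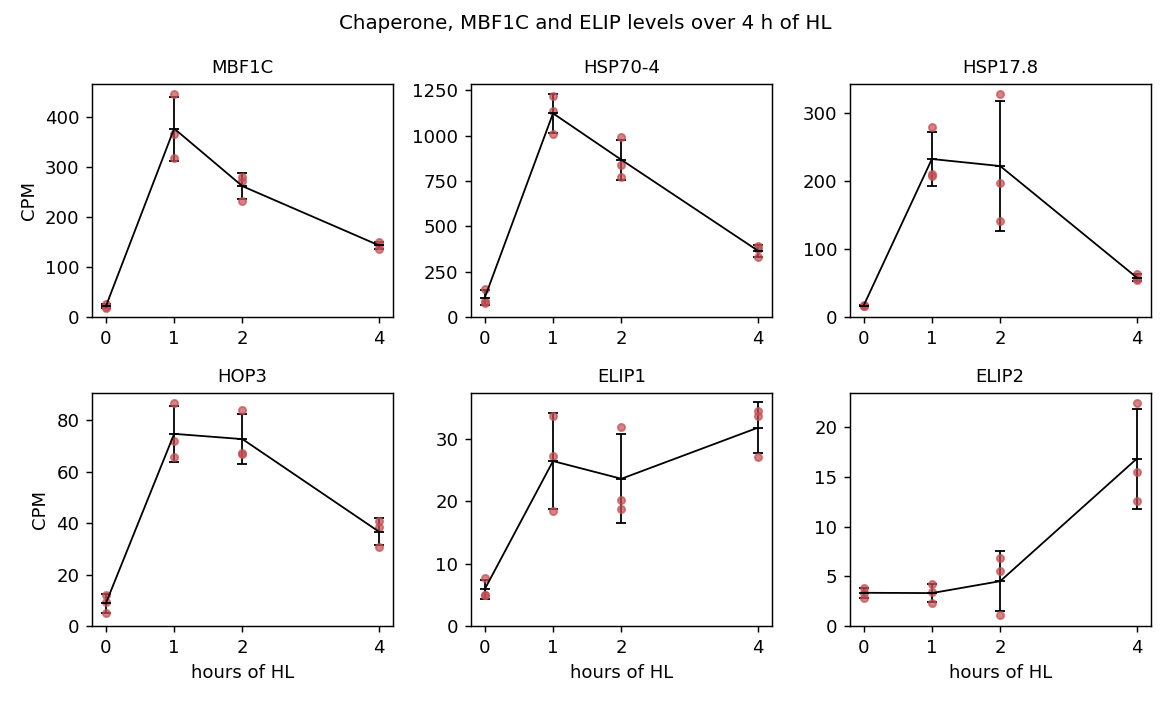
CPM of 6 genes (vertical axes) at 0, 1, 2 and 4 h of HL (horizontal axis, hours), with points for libraries and a line through the group means with SD bars (n = 3). MBF1C, HSP70-4, HSP17.8 and HOP3 have their highest mean at 1 h and lie above 0 h at 4 h, while ELIP2 has its highest mean at 4 h.

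Antioxidant enzymes changed little as a list: 4 of 28 rose and 0 fell, with a median of 0.17. CAT2 is described above. CCS, the copper chaperone of superoxide dismutase, had 90.6, 69.1 and 111 CPM at HL 4 h, against 45.1, 44.5 and 26.8 CPM at HL 0 h (log2 fold change 1.22, SE 0.203, adjusted p = 0.000114), and the chloroplast copper/zinc superoxide dismutase CSD2 changed by 1.102. PRXQ, a chloroplast peroxiredoxin, changed by 1.14, not called without HL 0 h replicate 2 (0.98) or without HL 4 h replicate 1 (0.81). The CSD2 call ends without HL 0 h replicate 3 (0.83) or without HL 4 h replicate 1 (0.94), and without HL 4 h replicate 1 only 2 genes of the list rose, against 6 without HL 0 h replicate 1. APX1, the cytosolic ascorbate peroxidase, had 1033, 1061 and 1264 CPM at HL 4 h, against 754, 400.2 and 683 CPM at HL 0 h, with no overlap but a log2 fold change of 0.87. CAT3 changed by -0.45. VTC2, a rate-limiting enzyme of ascorbate synthesis, had 417, 447 and 324 CPM at HL 4 h, against 68.2, 50.2 and 64.3 CPM at HL 0 h (log2 fold change 2.69, SE 0.168, adjusted p = 3.95e-10) and was the only called gene of 7 for ascorbate and tocopherol. Of 3 tested ferritins, which store iron, FER1 rose (1.38), with a course of 581, 1401, 1747 and 1509 CPM at 0, 1, 2 and 4 h.

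Detoxification genes rose among the glucosyltransferases. Of 15 genes 6 rose and 1 fell. UGT75D1 had 202, 166 and 217 CPM at HL 4 h, against 24.8, 28.0 and 28.5 CPM at HL 0 h (log2 fold change 2.85, SE 0.172, adjusted p = 2.37e-10), with no overlap. UGT75B1 changed by 3.46, UGT73B2 by 2.19 and UGT73C6 by 1.37, the last not called without replicate 2 of both groups (1.02). UGT73C1 had 46 counts at HL 4 h and 0 at HL 0 h, which is at least 13.9-fold higher when HL 0 h is set to a total of 3 counts. CYP81D11 had 38 and 2 counts (ratio 17.2, 95% interval 4.46 to 148). The 1 that fell was OPR2, an oxophytodienoate reductase (-1.31), and without HL 0 h replicate 2 its neighbour OPR1 is the second. OPR1 had 18.7, 14.3 and 26.0 CPM at HL 4 h, against 42.9, 4.30 and 50.3 CPM at HL 0 h, so that library lies far below the other HL 0 h libraries. Glutathione transferases counted 2 higher and 1 lower of 10, and each of the 3 calls ends when some single library is left out.

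Of the genes known to respond to singlet oxygen, BAP1, AT5G64870 and AT5G13200 were read here, and these 3 fell with no overlap between the groups. The study's calmodulin-related marker was not read. BAP1, a negative regulator of cell death, had 37.3, 38.9 and 28.7 CPM at HL 4 h, against 120.5, 184 and 128 CPM at HL 0 h (log2 fold change -2.04, SE 0.227, adjusted p = 9.86e-07), and its means were 144, 63.0, 47.5 and 35.0 CPM at 0, 1, 2 and 4 h. AT5G64870 changed by -3.26 and AT5G13200 by -1.66. The signalling genes EX1 (0.66), EX2 (0.86) and MBS1 (0.31) were not called. In LL 3 of these 6 genes were called lower (10.9% of all genes were). The median of the 6 was -0.70 in LL, against -0.68 in HL. The HL minus LL difference was called for 0 of them.

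Cold-regulated genes and their activators fell steeply. Of 6 CBF and DDF genes, which encode AP2 factors that bind the CRT/DRE element of cold and drought promoters, 5 fell. DDF1 had 0 counts at HL 4 h and 851 at HL 0 h, which is at least 313-fold lower when HL 4 h is set to a total of 3 counts, and DDF2 had 0 and 116 (at least 42.6-fold lower). CBF2 had 1 and 77 counts (ratio 84.8, 95% interval 14.8 to 3390). CBF1 had 0 and 14 counts, at least 5.14-fold lower. DESeq2 gave CBF1 no adjusted p and so no call. RAP2.1, a repressor in the same family, had 74.6, 71.9 and 80.1 CPM at HL 4 h, against 60.0, 67.4 and 58.7 CPM at HL 0 h and was not called. Of 12 proteins of the cold response 9 fell and 0 rose, with a median of -2.97. LTI78, also named RD29A, had 21.9, 29.6 and 15.5 CPM at HL 4 h, against 882, 829 and 741 CPM at HL 0 h (log2 fold change -5.19, SE 0.223, adjusted p = 2.25e-12). COR15A, which protects chloroplast membranes in frost, had 4.26, 18.1 and 1.66 CPM at HL 4 h, against 238, 235 and 167 CPM at HL 0 h (log2 fold change -4.73, SE 0.506, adjusted p = 5.79e-07). The dehydrins ERD10, COR47 and LTI30 changed by -3.90, -2.37 and -3.58, with LTI30 at 22.9, 33.5 and 43.1 CPM at HL 4 h, against 481, 222 and 481 CPM at HL 0 h. KIN1 (-4.66) and KIN2 (-3.80) fell too. KIN2 was slower than LTI78: its means were 2798, 2605, 963 and 200.4 CPM at 0, 1, 2 and 4 h, and those of LTI78 were 817, 154, 44.4 and 22.3 CPM at 0, 1, 2 and 4 h. In LL 10 of the 11 in both tables were called lower, with a median of -4.35, against -3.58 for the same genes in HL.

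The CRT/DRE core CCGAC was counted on both strands of the 250 bases before each gene's start (RefSeq, TAIR10.1). It was in 4 of the 12 cold-regulated promoters (33.3%), against 12.8% of the 11018 promoters of all tested nuclear genes and 14.6% of those of genes that fell. The motif was not particular to the cold list, since it was also in 4 of 12 small heat shock protein promoters (33.3%), 2 of 7 of morning clock genes (28.6%), and in 2 of 8 of the LHC-like and 3 of 12 of the minor antenna list. These 3 of the 4 are shown because they hold more than 1 match. They are LTI78 (chr5:21240467-21240716, plus strand), COR15A (chr2:17712331-17712580, minus strand) and LTI30 (chr3:18940393-18940642, plus strand). Capitals mark CCGAC or its reverse complement GTCGG, and the last base of each run is next to the gene's start.
LTI78: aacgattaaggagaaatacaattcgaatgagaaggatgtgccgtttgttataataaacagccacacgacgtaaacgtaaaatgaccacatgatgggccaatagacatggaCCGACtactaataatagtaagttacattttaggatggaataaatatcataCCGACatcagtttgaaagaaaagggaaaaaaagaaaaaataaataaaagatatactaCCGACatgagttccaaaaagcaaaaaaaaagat
COR15A: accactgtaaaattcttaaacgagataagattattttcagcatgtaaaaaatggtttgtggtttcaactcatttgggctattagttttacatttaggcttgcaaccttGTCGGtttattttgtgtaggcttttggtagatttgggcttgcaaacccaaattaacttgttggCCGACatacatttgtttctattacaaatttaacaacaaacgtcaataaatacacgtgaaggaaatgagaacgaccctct
LTI30: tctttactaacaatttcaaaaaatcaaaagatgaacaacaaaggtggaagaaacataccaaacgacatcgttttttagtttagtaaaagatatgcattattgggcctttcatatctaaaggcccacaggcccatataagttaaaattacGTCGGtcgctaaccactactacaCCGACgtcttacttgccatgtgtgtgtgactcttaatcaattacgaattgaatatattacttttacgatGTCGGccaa
LTI78 and LTI30 hold 3 matches and COR15A 2. A match is a description of the letters, not of a factor bound there.

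Jasmonate synthesis fell, and so did genes that respond to touch and wounding. Of 15 genes of jasmonate synthesis and turnover 9 fell and 0 rose, with a median of -1.58. LOX4 and LOX3, lipoxygenases of the first step, changed by -4.23 and -2.50. AOC3, an allene oxide cyclase, had 17.6, 20.8 and 14.4 CPM at HL 4 h, against 151, 193 and 121 CPM at HL 0 h (log2 fold change -3.13, SE 0.195, adjusted p = 3.95e-10), while AOC2 had 398, 449 and 386 CPM at HL 4 h, against 404, 621 and 339 CPM at HL 0 h with overlapping groups. CYP94C1, which inactivates the hormone, had 34.6, 32.4 and 37.6 CPM at HL 4 h, against 224, 421 and 243 CPM at HL 0 h (log2 fold change -3.08, SE 0.219, adjusted p = 2.46e-09), with replicate 2 the highest at HL 0 h. AOS (-1.58), OPR3 (-1.70), OPCL1 (-2.24), CYP94B3 (-3.78) and LOX2 (-1.34) fell as well. Of 8 JAZ repressors JAZ1 (-3.06) and JAZ5 (-2.81) fell, and JAZ12 was not called (0.30). Of 8 output genes 5 fell, among them VSP2 (-1.76) and TAT3 (-2.20), a count of 3 without HL 0 h replicate 2. The 1 that rose, ARGAH1, had 13 counts at HL 4 h and 0 at HL 0 h (at least 3.93-fold higher). Its call ends with DESeq2, which gave it no adjusted p, and when any library but HL 4 h replicate 2 is left out. The touch genes TCH3, TCH4 and CML37 all fell. TCH3, a calmodulin-like protein, had 606, 607 and 694 CPM at HL 4 h, against 2725, 3037 and 2802 CPM at HL 0 h (log2 fold change -2.17, SE 0.126, adjusted p = 1.52e-10). In LL 9 of the 15 synthesis and turnover genes were also called lower (10.9% of all genes were), with a median of -1.595. The 3 touch genes fell in LL too, with a median of -2.64, against -2.70 in HL. In LL 2 of the 7 JAZ genes that HL and LL share and 6 of the 8 output genes were called lower. The HL change was called higher than the LL change for 3 output genes.

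Part of the fast stress transcription factors fell. Of 8 ERF genes 5 fell and 0 rose. RRTF1, which amplifies reactive oxygen signals, had 3 counts at HL 4 h and 372 at HL 0 h (ratio 137, 95% interval 46.4 to 666). ERF6 had 10.7, 23.0 and 21.0 CPM at HL 4 h, against 158, 207 and 121 CPM at HL 0 h (log2 fold change -3.15, SE 0.232, adjusted p = 3.81e-09). Of 10 WRKY genes 5 fell and WRKY45 rose. WRKY40 had 15.5, 21.9 and 19.9 CPM at HL 4 h, against 142, 175 and 115 CPM at HL 0 h (log2 fold change -2.91, SE 0.184, adjusted p = 4.68e-10), and WRKY45 had 207, 202 and 196 CPM at HL 4 h, against 72.1, 52.4 and 71.0 CPM at HL 0 h (log2 fold change 1.62, SE 0.183, adjusted p = 1.12e-06). Neither overlapped between the groups. The HL change was called lower than the LL change for both WRKY40 (difference -1.12) and WRKY45 (-1.07). These calls end when some single libraries are left out. HL 4 h itself differed from LL 4 h by -0.003 for WRKY40 and -0.67 for WRKY45, neither called. Of 7 zinc finger genes ZAT10, ZAT12 and SZF1 fell, by 2.14, 1.54 and 3.10. ZAT10 had 109.8, 107 and 112 CPM at HL 4 h, against 422, 645 and 385 CPM at HL 0 h, and its means were 484, 232, 157 and 109 CPM at 0, 1, 2 and 4 h. In LL 3 of the 8 ERF genes, 4 of the 10 WRKY genes and 3 of the 7 zinc finger genes were called lower (10.9% of all genes were). There 1 WRKY gene was called higher.

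Clock and light-signalling genes moved in both directions. All 7 tested genes of the morning and day were called, 3 higher and 4 lower. RVE8, an activator of evening genes, had 9.59, 12.6 and 14.4 CPM at HL 4 h, against 3.30, 3.59 and 1.12 CPM at HL 0 h (log2 fold change 2.19, SE 0.407, adjusted p = 0.000371), and RVE4 changed by 1.28. RVE2 had 21 counts at HL 4 h and 0 at HL 0 h, at least 6.35-fold higher, and DESeq2 gave it no adjusted p and so no call. CHE, a TCP factor, had 68.8, 81.7 and 57.4 CPM at HL 4 h, against 367, 474 and 356 CPM at HL 0 h (log2 fold change -2.52, SE 0.163, adjusted p = 6.09e-10). PRR5 (-2.21) fell too, PRR7 had 1 and 14 counts (ratio 15.4, 95% interval 2.35 to 652), and CCA1 (-1.66) loses its call without HL 0 h replicate 2 (-1.37). The PRR7 call ends with DESeq2, which gave it no adjusted p, and without HL 0 h replicate 3 (-3.35), HL 4 h replicate 1 (-3.06) or HL 4 h replicate 2 (-3.07). Of 13 evening genes 4 rose and 1 fell. JMJD5 had 110.3, 119 and 113 CPM at HL 4 h, against 12.7, 11.5 and 12.3 CPM at HL 0 h (log2 fold change 3.22, SE 0.169, adjusted p = 3.68e-11). Its HL change was called lower than its LL change (difference -1.21), a call that ends without LL 0 h replicate 1 (-1.105). HL 4 h itself differed from LL 4 h by -0.11 for JMJD5, not called. ELF4 had 368, 416 and 332 CPM at HL 4 h, against 105, 143 and 136 CPM at HL 0 h (log2 fold change 1.54, SE 0.141, adjusted p = 6.77e-08). PRR3 (1.59) and BOA (1.07) rose, BOA not without HL 0 h replicate 3 (0.97) and PRR3 not without HL 0 h replicate 2 (1.37), HL 4 h replicate 1 (1.40) or HL 4 h replicate 3 (1.42), and GI fell (-1.77). TOC1 (-0.12) and LUX (-0.66) were not called. In LL 2 of the 6 morning genes that HL and LL share were called higher and 4 lower (17.2% of all genes were called, either way). Of the 13 evening genes 3 were called higher and 1 lower in LL.

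The evening element AAAATATCT, on both strands of the same 250 bases, was in 6 of the 13 evening gene promoters (46.2%), against 2.64% of the 11018 promoters, 2.06% of those of genes that rose and 3.30% of those of genes that fell. A promoter of each direction is shown, that of BOA, which rose (chr5:24003638-24003887, plus strand), and that of PRR5, which fell (chr5:8358547-8358796, minus strand). PRR5 is not 1 of the 13 evening genes but of the morning list, where 1 of 7 promoters held the element (14.3%). Capitals mark the element, here as its reverse complement AGATATTTT.
BOA: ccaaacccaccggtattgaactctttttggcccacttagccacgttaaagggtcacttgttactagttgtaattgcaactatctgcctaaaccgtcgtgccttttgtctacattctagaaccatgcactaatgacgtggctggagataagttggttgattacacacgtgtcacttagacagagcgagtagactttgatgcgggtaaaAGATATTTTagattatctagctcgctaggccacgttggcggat
PRR5: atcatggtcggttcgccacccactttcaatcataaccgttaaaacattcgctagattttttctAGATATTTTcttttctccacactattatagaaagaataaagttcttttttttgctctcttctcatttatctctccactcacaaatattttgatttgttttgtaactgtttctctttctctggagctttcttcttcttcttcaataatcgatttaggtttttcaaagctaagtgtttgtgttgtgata
Of the 6 evening genes with a match, BOA was called and TOC1, LUX, FKF1, GRP7 and GRP8 were not, while JMJD5, ELF4, PRR3 and GI, which were called, held 0 matches in this window. The 2 motifs cannot overlap each other.

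Among 19 photoreceptor and light-signalling genes 2 rose and 3 fell. The 3 that fell are phytochrome-interacting factors, which promote growth in shade. PIF4 had 1.599, 5.49 and 3.31 CPM at HL 4 h, against 74.3, 103 and 63.2 CPM at HL 0 h (log2 fold change -4.50, SE 0.317, adjusted p = 2.13e-09), PIF5 had 54.4, 54.3 and 41.4 CPM at HL 4 h, against 317, 351 and 313 CPM at HL 0 h (log2 fold change -2.71, SE 0.148, adjusted p = 6.15e-11), and PIF7 changed by -1.62. PIF1 (0.44) and PIF3 (0.53) did not pass. In LL 3 of the 17 genes of this list that HL and LL share were called lower and 1 higher (17.2% of all genes were called, either way). PHYB rose (1.12) and GLK2 (1.03) loses its call without HL 4 h replicate 1 (0.95), which leaves PHYB. Of 9 B-box factors 3 rose, BBX25, BBX31 and BBX32, and BBX28 (-2.89) and BBX16 (-3.86) fell. BBX31, which acts in the response to UV-B, had 8.53, 9.33 and 3.87 CPM at HL 4 h, against 1.1, 1.43 and 1.12 CPM at HL 0 h (log2 fold change 2.53, SE 0.539, adjusted p = 0.00134). The BBX32 call ends with DESeq2 and without HL 0 h replicate 1 (1.30) or without HL 4 h replicate 2 (1.23).

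Hormone and cell wall lists held calls in both directions. In abscisic acid signalling 1 of 20 genes rose and 5 fell, among them RD22 (-1.998) and LEA4-5 (-2.99), and without HL 4 h replicate 3 only 2 fell. EIN2 was the 1 ethylene gene of 12 to be called (1.06), not without HL 4 h replicate 3 (0.96). Of 10 Aux/IAA repressors IAA28 rose (1.14) and IAA19 fell (-1.62). Of 12 expansins 7 were called (15.7% of all genes were, either way). The 3 tested members of the expansin-like A family fell, and EXLA2 had 7.46, 8.23 and 3.31 CPM at HL 4 h, against 190.4, 216 and 94.5 CPM at HL 0 h (log2 fold change -4.70, SE 0.346, adjusted p = 3.81e-09). Expansins of the alpha family rose in 4 cases, or 2 without HL 4 h replicate 2, among them EXPA1 (1.33). Of 10 xyloglucan endotransglucosylases XTH23 (-3.23) and XTH18 (-3.34) fell. XTH7 (2.31) and XTH31 (1.53) rose, XTH31 not without HL 4 h replicate 2 (0.89).

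In starch metabolism 1 of 18 genes rose and 2 fell, a share close to that over all genes. Over all genes 15.7% were called, either way, which is the share to set beside each list count in this paragraph. BAM3, a chloroplast beta-amylase of starch breakdown, had 937, 963 and 881 CPM at HL 4 h, against 366, 401 and 277 CPM at HL 0 h (log2 fold change 1.42, SE 0.147, adjusted p = 3.87e-07), and GBSS1, the granule-bound synthase, had 4.26, 10.97 and 2.21 CPM at HL 4 h, against 51.7, 26.5 and 40.3 CPM at HL 0 h (log2 fold change -2.77, SE 0.381, adjusted p = 1.33e-05). AMY3 had 3 counts at HL 4 h and 16 at HL 0 h (ratio 5.88, 95% interval 1.68 to 31.5), a call that DESeq2 does not make. In addition, 4 of the 6 single libraries end the AMY3 call when left out, with changes from -2.41 to -1.86. ASN1, an asparagine synthetase that is high in the dark, fell (-1.35) and was the 1 called gene of 6 for starvation, while 2 fell without HL 0 h replicate 2 and 1 rose without HL 4 h replicate 2. Of 9 nitrogen genes GLN1.2, a glutamine synthetase, rose (1.19) and NIA1 fell (-1.05), the call of NIA1 ending without HL 0 h replicate 2 (-0.95), HL 4 h replicate 1 (-0.996) or HL 4 h replicate 2 (-0.95). Of 13 glucosinolate genes MYB28, a regulator of the aliphatic branch, rose (1.201), and MAM1 (-1.53) and BCAT4 (-1.16), of that branch, fell, BCAT4 not without HL 4 h replicate 3 (-0.84). None of 13 plasma membrane aquaporins was called by edgeR's test, 6 of them having an unadjusted p under 0.05, and DESeq2 called 0, while 1 was called lower when HL 0 h replicate 3, HL 4 h replicate 2 or HL 4 h replicate 3 was left out. Their changes ran from -0.98 (PIP2.6) to 0.69 (PIP1.2).

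Several of the largest changes lie outside these lists. CGA1, a GATA factor of chloroplast development, had 53.3, 42.2 and 66.3 CPM at HL 4 h, against 3.85, 6.46 and 2.80 CPM at HL 0 h (log2 fold change 3.65, SE 0.301, adjusted p = 1.73e-08). CSLB03, a cellulose synthase-like gene, had 85.3, 77.3 and 101 CPM at HL 4 h, against 9.90, 6.46 and 4.47 CPM at HL 0 h (log2 fold change 3.64, SE 0.306, adjusted p = 2.2e-08). AT4G33720, of a family with pathogenesis-related proteins, spread more, with 134, 226 and 293 CPM at HL 4 h, against 13.8, 20.8 and 14.5 CPM at HL 0 h (log2 fold change 3.75, SE 0.408, adjusted p = 7.07e-07). None of the 3 overlapped between the groups. Among abundant transcripts GASA1, a gibberellin-regulated peptide gene, had 9546, 9415 and 10025 CPM at HL 4 h, against 2709, 3697 and 2485 CPM at HL 0 h (log2 fold change 1.71, SE 0.146, adjusted p = 2.73e-08), and its highest mean was at 2 h, with 2964, 6398, 11468 and 9662 CPM at 0, 1, 2 and 4 h. AT3G47070, annotated as a thylakoid soluble phosphoprotein, had 5555, 4812 and 4229.7 CPM at HL 4 h, against 1796, 1887 and 1577 CPM at HL 0 h (log2 fold change 1.47, SE 0.113, adjusted p = 6.87e-09). MT2A, a metallothionein, changed by 1.08 and loses its call without HL 4 h replicate 2 (0.96). Among the falls, AT2G35290, of unknown function, had 5.33, 4.39 and 4.42 CPM at HL 4 h, against 184, 212 and 155 CPM at HL 0 h (log2 fold change -5.26, SE 0.235, adjusted p = 3.71e-12), and AT5G52020, an AP2 factor, had 1.07, 0 and 1.105 CPM at HL 4 h, against 33.0, 43.8 and 26.8 CPM at HL 0 h. These libraries did not overlap either.

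A pair of large changes came with libraries that stand apart. The chloroplast gene ATCG00260 had 1.07, 1.097 and 535 CPM at HL 4 h, against 0.550, 0 and 0 CPM at HL 0 h, so nearly all its counts came from replicate 3, without which the change is 2.102 and not called. DESeq2 gave it no adjusted p and so no call, and the test without any single HL 0 h library does not call it either. CYCD4;1, a cyclin, had 111, 135 and 1.66 CPM at HL 4 h, against 0, 1.43 and 0 CPM at HL 0 h. Here HL 4 h replicate 3 lies near the HL 0 h libraries, and the call ends with DESeq2 and without HL 0 h replicate 1 (6.91) or without HL 0 h replicate 3 (6.90). Organelle-encoded genes took 1.66 to 1.93% of counts at HL 4 h and 1.51 to 1.99% at HL 0 h.

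Whether 4 h of HL changed a gene otherwise than 4 h of LL was tested in a model of the 24 libraries together, with the 10349 genes that the HL and LL tables share. The HL change was higher than the LL change for 250 genes (2.42%) and lower for 52 (0.502%). Without HL 4 h replicate 1 these were 165 and 29 genes, and without LL 0 h replicate 2 the lower count was 30. Calvin cycle genes stood out by count, with 12 of 20 called higher and 0 lower. Photorespiration had 6 of 11, cytosolic chaperones 7 of the 14 in both tables, organelle chaperones 5 of 12 and LHC-like proteins 4 of 8, each with 0 lower. With each of the 12 libraries left out in turn these counts ran from 8 to 13 for the Calvin cycle, 4 to 7 for photorespiration, 6 to 8 for cytosolic chaperones, and stayed at 4 for LHC-like proteins. The count for organelle chaperones ran from 1 to 4, and was 1 or 2 whichever library was left out, except for HL 4 h replicate 2, LL 0 h replicate 3 and replicate 1 of LL 4 h. Of the 12 Calvin cycle genes called for a higher HL change, 6 were among the 7 of the list called higher in HL itself. RCA, the Rubisco activase, was higher by 0.50 in HL, not called, and changed by -1.03 in LL (difference 1.57, SE 0.195, adjusted p = 1.64e-05). FBA1 changed by -0.11 in LL (difference 1.66, SE 0.207, adjusted p = 1.7e-05). PSBS, which was not called in HL, had 763, 687 and 830.5 CPM at LL 4 h, against 1930.2, 1771 and 2331 CPM at LL 0 h (difference 1.37, SE 0.177, adjusted p = 2.16e-05). MBF1C had 37.4, 29.0 and 33.2 CPM at LL 4 h, against 30.7, 33.9 and 19.9 CPM at LL 0 h (difference 2.55, SE 0.311, adjusted p = 1.64e-05). ELIP1 had 4.40, 5.69 and 6.43 CPM at LL 4 h, against 9.82, 7.34 and 2.39 CPM at LL 0 h (difference 2.73, SE 0.517, adjusted p = 0.00199).

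**Figure D4:**
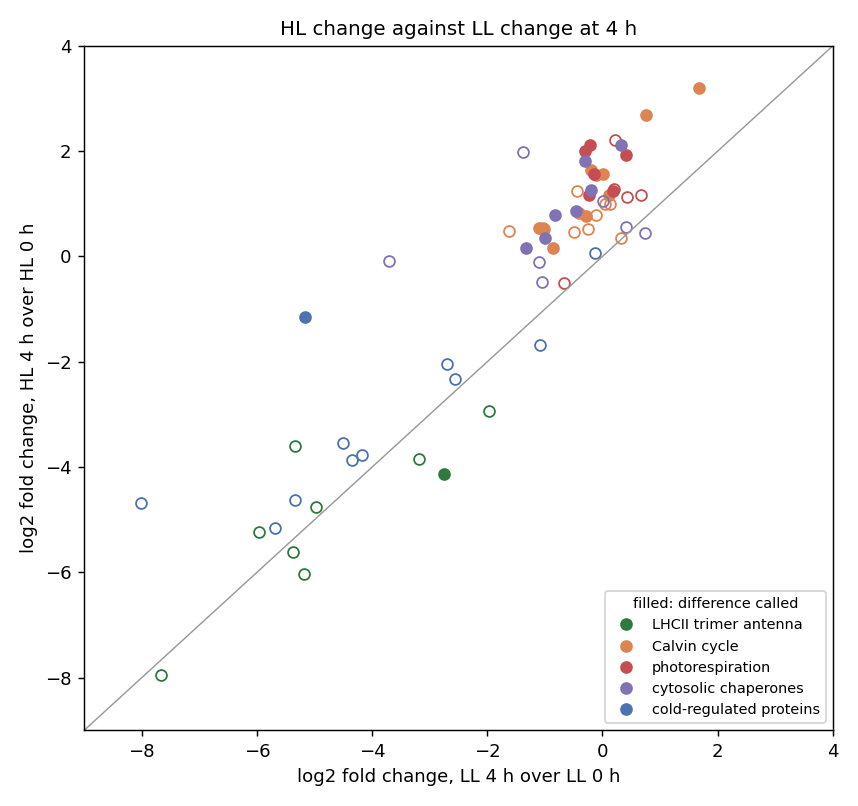
Log2 fold change over 4 h in HL (vertical axis) against that in LL (horizontal axis), both from the fit of 24 libraries, for genes of 5 lists, with filled points called for a different change and a grey line at equal change. A gene called for a higher HL change lies above the line by construction, as do all Calvin cycle and photorespiration genes called different. LHCB1.4, the 1 LHCII gene called different, lies below it.

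The genes with the largest called differences were taken among those called in HL with at least 20 CPM on average in their higher HL group. AT2G15020, of unknown function, had 1.1, 0 and 4.29 CPM at LL 4 h, against 2.45, 2.26 and 3.19 CPM at LL 0 h (difference 5.37, SE 0.902, adjusted p = 0.000601), and its HL libraries had 89.5, 66.4 and 70.2 CPM at HL 4 h, against 2.75, 4.30 and 1.12 CPM at HL 0 h. CAT2 had 8.80, 7.76 and 8.04 CPM at LL 4 h, against 20.9, 41.2 and 10.4 CPM at LL 0 h (difference 3.52, SE 0.434, adjusted p = 1.64e-05). AT1G73120, an F-box protein, had a difference of 3.44, SQP1, a squalene epoxidase-like gene, of 3.38, and AT3G28270 of 3.27. LUT5 had 3.30, 3.62 and 3.75 CPM at LL 4 h, against 6.75, 7.90 and 14.3 CPM at LL 0 h (difference 2.95, SE 0.438, adjusted p = 0.000188). In the other direction SAG21, a senescence-associated gene, had 1435, 1735 and 1678 CPM at LL 4 h, against 1796, 1133 and 1041 CPM at LL 0 h (difference -1.65, SE 0.252, adjusted p = 0.000256), with 661, 839.8 and 750.2 CPM at HL 4 h, against 1891, 1930.2 and 2121 CPM at HL 0 h. PIF4 had a difference of -1.87, ERF6 of -1.53 and AT4G24110 of -1.35. LHCB1.4 was the 1 LHCII gene called, with a fall of 4.16 in HL and 2.74 in LL (difference -1.38, SE 0.325, adjusted p = 0.0127). With single libraries left out, 1 to 3 LHCII genes were called lower, 3 of them without HL 4 h replicate 2, and 1 was called higher without LL 4 h replicate 1. The PIF4 difference loses its call when HL 0 h replicate 2, HL 4 h replicate 1 or 3, LL 0 h replicate 1 or 2, or replicate 1 of LL 4 h is left out (-1.84 to -1.45). Set directly against LL 4 h, HL 4 h differed by -0.47 for ERF6, -0.62 for AT4G24110 and -0.97 for LHCB1.4, none called, and the LHCB1.4 difference is not called without replicate 2 of both HL groups (-1.17).

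The 0 h libraries of the HL and LL series differed. HL 0 h was called lower than LL 0 h for 428 genes (4.14%) and higher for 36 (0.348%). Of the 250 genes with a higher HL change 73 were among those lower at HL 0 h, and of the 52 with a lower one 9 were among those higher at HL 0 h. At an unadjusted p under 0.05 by edgeR's test, with no fold limit, HL 0 h lay below LL 0 h for 139 of the 250. Set directly against LL 4 h, 122 of the 250 were called higher at HL 4 h (2.64% of all genes were) and 8 of the 52 lower (0.271% of all genes). Of the 250, 126 were called higher in HL 4 h against HL 0 h, and 96 were called lower in LL 4 h against LL 0 h. Of those 126, 75 were also called higher at HL 4 h than at LL 4 h. Among the Calvin cycle genes RBCS1A (-1.33), RBCS1B (-1.41) and GAPA1 (-1.40) were lower at HL 0 h than at LL 0 h, while RCA (0.18), FBA1 (0.11) and CP12-2 (0.18) were not called there. GOX2 (-1.53) and HPR1 (-1.38) were lower at HL 0 h too, while GOX1 (-0.37) and GLDP1 (0.33) were not called.

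Of 14 root markers 2 rose and 3 fell (15.7% of all genes were called, either way). Their median was -0.84, and 8 had an unadjusted p under 0.05 by edgeR's test (36.4% of all genes had). The changes of the root markers ran from -1.78 to 1.496, the highest being that of EXPA18. Of the root marker calls 2 hold when each single library is left out. Of 6 epidermal and guard cell markers PDF1 fell (-1.12), a call that ends without HL 0 h replicate 1 (-0.97), HL 0 h replicate 3 (-0.77) or HL 4 h replicate 1 (-1.05), and 5 of the 6 had an unadjusted p under 0.05. Of 5 vascular markers PP2-A1 rose (1.29), not without HL 0 h replicate 2 (0.93). The summed level of the root list was 171 to 213 CPM at HL 4 h and 240 to 312 CPM at HL 0 h, with no overlap, and its part in the results above was not tested. The 4 markers of dividing cells were not analysed here. The antenna and carbon fixation genes above mark green tissue in every library.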

How the data were processed

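Per the study's methods, MARS-seq reads were trimmed with cutadapt, mapped to Araport 11 with STAR 2.4.2a and counted with HTSeq-count, and genes with few reads in every library were left out. Whether molecular identifiers were collapsed or strand was used is not given in the sources used here. The authors deposited raw counts per gene in 1 table per light level, where the highest count of every HL gene was at least 6. The tables also hold columns the authors made with DESeq2, namely normalized signal, regularised log2 values, and the log2 fold changes and p-values of their own comparisons. None of these was used, and 0 per-sample columns were left without a library. In the HL table, 11078 of 11166 gene IDs matched a RefSeq locus tag and 5403 had a symbol there.

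The raw counts were fitted with edgeR 4.0.16 in R 4.3.3 (TMM scaling, quasi-likelihood test, Benjamini-Hochberg adjustment over all genes), over 12 HL libraries for HL 4 h against HL 0 h and over 24 libraries for the contrasts with LL. Both the CPM given for LL libraries and the LL changes come from the fit of 24 libraries, over genes in both tables. A call needs an adjusted p under 0.05 and at least 2-fold, and no further filter was applied. SE is the size of the log2 fold change divided by the square root of the test's F statistic. It is not a standard error given by the fit. Ratios of low counts have exact 95% intervals (counting error only), and folds against 0 counts use a floor of 3 counts over the group. The procedure was tested on simulated data. Alternatives were RLE scaling, DESeq2 1.42.0, the filterByExpr filter, a replicate block, organelle genes left out, only 6 libraries, and each library left out.

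Promoters of 250 bases were read from the RefSeq genome (TAIR10.1) by gene start, with no coordinate taken from the deposited tables. Genes were named by a rule: the 12 largest changes each way among genes without overlap that averaged 20 CPM or more in the group where they were higher, the 6 most abundant each way, the 3 called members each way with the smallest p in each list, the 8 largest HL minus LL differences each way, the singlet oxygen markers, and members needed to account for small counts. The text names 227 genes, of which 77 lie outside its first 5 parts, being members that account for a count or genes chosen after their values were seen. The comparison, the lists and their members were chosen with earlier results of these data known. The gene mutated in *Ch1* was not analysed here, and some genes that the rule names are not reported here.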

Additional observations from a re-analysis of the deposited data

Results flagged for a closer look

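Over 4 h, 250 genes were called for a higher change in HL than in LL and 52 for a lower one. Of the genes named above 58 had a called difference. Those whose difference the text gives were, on the log2 scale, AT2G15020 (5.37), CAT2 (3.52), AT1G73120 (3.44), SQP1 (3.38), AT3G28270 (3.27), LUT5 (2.95), ELIP1 (2.73), MBF1C (2.55), FBA1 (1.66), RCA (1.57) and PSBS (1.37). In the other direction they were PIF4 (-1.87), SAG21 (-1.65), ERF6 (-1.53), LHCB1.4 (-1.38), AT4G24110 (-1.35), JMJD5 (-1.21), WRKY40 (-1.12) and WRKY45 (-1.07). The 0 h libraries of HL and LL also differed, as given above, and their part in these differences was not tested.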

How the results depend on the processing

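The HL 4 h against HL 0 h counts (839 higher, 912 lower) were 692 and 813 with DESeq2, 833 and 922 with RLE scaling, 776 and 788 with the filterByExpr filter, 791 and 855 from 6 libraries only, and 833 and 918 without organelle genes. With each library left out in turn they ran from 719 to 843 higher and 809 to 930 lower. Of 193 called genes named in the text 157 kept the call under all of these settings and a replicate block, 36 lost it in at least 1, 11 of them with DESeq2, and 0 changed sign. Among those 11, DESeq2 gave no adjusted p for CBF1, RVE2, PRR7, ARGAH1 and ATCG00260. The HL minus LL difference (250 higher, 52 lower) gave 241 and 47 with DESeq2, 252 and 52 with RLE scaling, 251 and 52 with the filter, and 251 and 52 without organelle genes. With each of 12 libraries left out it ran from 165 to 269 higher and 29 to 65 lower. Of 58 named genes with a called difference 21 lost it in at least 1 of these settings or with a replicate block, 4 of them with DESeq2, and 0 changed sign. Among those 4, DESeq2 gave no adjusted p for ARGAH1, ELIP2 and LHCB7. Setting HL 4 h directly against LL 4 h, a choice made after seeing the data, gave 273 higher and 28 lower, and the cause of the lower count was not tested. The 21 lost calls do not count this setting, in which further named genes with a called difference were not called. Among them HL 4 h differed from LL 4 h by 0.31 for RBCS1A, 0.43 for GAPA1, 0.775 for GOX2, 0.94 for HPR1 and 0.08 for XTH7. Leaving out replicate 2 of both HL groups was also chosen after seeing the data and gave 198 and 41.

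Whether the replicate numbers pair the libraries was not settled. Over 7394 genes the deviations of same-numbered HL 4 h and HL 0 h libraries correlated at 0.07, 0.17 and 0.09. HL 4 h replicate 3 correlated best with HL 0 h replicate 1 (0.13), while the other pairs of unlike number ran from -0.187 to -0.000183. With a replicate block the counts were 824 higher and 908 lower, and 268 and 51 for the difference. The block ended no call of a gene named above in HL, and 1 called difference, that of LHCB7.

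At 1617051 to 2011380 counts a library, precision was lowest for genes of few counts, as the interval of the HSP23.5 ratio (1.71 to 65.1) shows. Genes of fewer than 6 counts in every HL library were not in the table.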
